A study of Mus musculus with 6 samples.

Results

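The promoters of mouse genes whose names consist of Zfp and a number, the zinc finger protein genes, were examined in small-intestinal organoids, cultured epithelial structures that arise from crypt stem cells, of aged and young mice. The assay was ATAC-seq, which reads out open chromatin through the insertions of a transposase (Tn5), and the authors deposited counts over 156733 consensus peaks with the gene of the nearest transcription start site (TSS) for each peak. A member was a peak within 1 kb of the TSS of a protein-coding gene so named, and where a gene had several such peaks the peak with the highest mean count was taken. This gave 249 promoters, 1 per gene, of 11135 protein-coding promoters chosen in the same way. The aged group held 3 libraries from organoids of mice aged 20 to 22 months and the young group 3 libraries from organoids of mice aged 2 to 3 months. All were from the C57BL/6JRj strain, were untreated, had been cultured for 3 to 5 weeks and were taken at passage 4 (replicate 1), 3 (replicate 2) or 2 (replicate 3). The titles give same-numbered aged and young libraries the same culture code and passage, but no label says whether different mice gave the 3 libraries of a group, so p-values measure the spread between these samples, which may be technical.

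Most proteins of this name carry C2H2 zinc fingers, small zinc-binding loops that are strung together and read DNA sequence. Many also carry a KRAB domain, which recruits the corepressor TRIM28 and through it the histone methyltransferase SETDB1. KRAB zinc finger proteins silence retroelements and hold imprints, and their genes lie in tandem arrays that arose by repeated duplication. The name is not a family, since Zfp36 and its relatives carry CCCH fingers and bind messenger RNA, and others work in ribosome quality control. Whether each member carries a KRAB domain was not analysed here.

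The promoter sequences are shown for the 3 members that differed with age and for Zfp143, one of the most open members, as the 250 bases before the RefSeq TSS that lies nearest the centre of the peak (GRCm38.p6, 5′ to 3′ on the strand of the gene). Capitals mark matches to 10 textbook promoter motifs, searched on both strands, and motifs may overlap each other.
Zfp334 (chr2:165388260-165388509, minus strand): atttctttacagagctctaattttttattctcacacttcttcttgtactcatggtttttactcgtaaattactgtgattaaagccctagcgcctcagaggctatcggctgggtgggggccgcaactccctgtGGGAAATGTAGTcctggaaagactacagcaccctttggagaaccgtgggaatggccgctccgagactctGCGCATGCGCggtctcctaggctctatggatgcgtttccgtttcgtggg
Zfp37 (chr4:62208547-62208796, minus strand): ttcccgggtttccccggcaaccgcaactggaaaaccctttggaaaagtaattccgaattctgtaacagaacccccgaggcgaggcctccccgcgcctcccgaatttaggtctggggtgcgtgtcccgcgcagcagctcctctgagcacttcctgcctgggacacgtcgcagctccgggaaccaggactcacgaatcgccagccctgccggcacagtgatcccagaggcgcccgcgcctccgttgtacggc
Zfp105 (chr9:122922828-122923077, plus strand): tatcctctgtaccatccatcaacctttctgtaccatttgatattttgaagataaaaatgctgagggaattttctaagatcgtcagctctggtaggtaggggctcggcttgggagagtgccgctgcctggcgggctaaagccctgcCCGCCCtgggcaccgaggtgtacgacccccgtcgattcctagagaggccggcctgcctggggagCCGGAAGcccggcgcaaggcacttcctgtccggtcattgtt
Zfp143 (chr7:110061452-110061701, plus strand): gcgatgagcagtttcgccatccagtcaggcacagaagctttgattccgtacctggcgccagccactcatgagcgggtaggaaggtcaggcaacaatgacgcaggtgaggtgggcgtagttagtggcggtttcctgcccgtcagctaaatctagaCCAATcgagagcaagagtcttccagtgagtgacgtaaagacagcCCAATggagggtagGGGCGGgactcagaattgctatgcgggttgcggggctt
The capitals in Zfp334 are a match to the ZNF143 motif on the opposite strand, starting 118 bases before the TSS, and a match to the NRF1 motif starting 49 bases before it. Zfp105 held the GC box GGGCGG of SP and KLF factors on the opposite strand and the ETS motif CCGGAAG. No match fell in the printed bases of Zfp37, whose 1 match, to the YY1 motif AAGATGGC, lay after the TSS. Zfp143 held the CCAAT box at 2 positions and a GC box. A match is a description of letters and not evidence of a bound factor.

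The ZNF143 motif was common among Zfp promoters, above all in some clusters of Zfp genes. ZNF143, encoded in mouse by the member Zfp143, is a zinc finger activator known to bind this element close to start sites. Of the 191 members whose peak overlapped a RefSeq promoter window of 300 bases (250 before and 50 after the TSS), 43 held the motif (22.5%), against 236 of 6360 windows of other protein-coding genes (3.71%). In the opposite direction, the GC box was in 44.5% of Zfp windows and 66.5% of the others. The other motifs differed less between Zfp windows and the rest. The CCAAT box was in 45.0% of Zfp windows and 38.7% of the others, CCGGAAG in 20.9% and 17.2%, the NRF1 motif in 11.5% and 10.0%, and AAGATGGC in 6.28% and 4.42%. The E-box CACGTG was in 7.85% and 10.3%, TATAAA in 7.33% and 7.58%, the CRE core TGACGTCA in 3.66% and 3.41%, and the BANP motif in 0.524% and 1.07%. Zfp windows were also poorer in G and C, with a median of 55.7% against 61.3% and an observed-to-expected CpG ratio of 0.653 against 0.759. The ZNF143 motif was in 33 of 82 Zfp windows in clusters of 4 or more members within 200 kb of each other (40.2%). Outside such clusters it was in 10 of 109 (9.17%). Clusters differed, from 16 of 17 windows between Zfp712 and Zfp273 on chromosome 13 to 0 of 8 between Zfp553 and Zfp629 on chromosome 7. Many members descend from shared ancestors, so these shares do not count independent promoters.

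**Figure D1:**
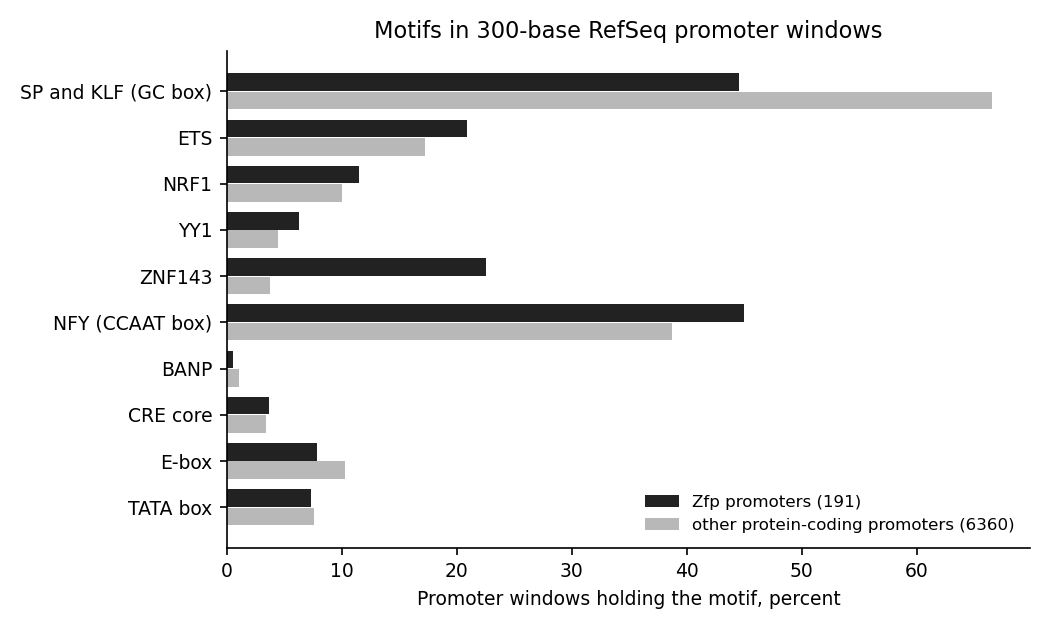
Share of 300-base RefSeq promoter windows that hold each motif on either strand, in percent, for 191 Zfp promoters (black, upper bar) and 6360 other protein-coding promoters (grey, lower bar). The ZNF143 bar is at 22.5% for Zfp promoters and 3.71% for the others, and the GC box bar at 44.5% and 66.5%.

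Stretches of 32 bases around the ZNF143 motif show what the members share. They are given on the strand of the motif, with its letters in capitals, for the called member Zfp334, and, among the 39 genes whose match lay with these flanks wholly before the TSS, for the 5 with the highest CPM (counts scaled to library size) per kb of peak and for Zfp454, with the lowest.
Zfp334 (chr2:165388356-165388387, plus strand): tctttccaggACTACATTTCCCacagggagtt
Zfp691 (chr4:119174353-119174384, minus strand): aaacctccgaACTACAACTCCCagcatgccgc
Zfp566 (chr7:30090565-30090596, minus strand): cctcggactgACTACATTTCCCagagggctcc
Zfp420 (chr7:29859910-29859941, plus strand): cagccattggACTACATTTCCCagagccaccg
Zfp708 (chr13:67081576-67081607, plus strand): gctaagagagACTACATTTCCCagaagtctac
Zfp748 (chr13:67553157-67553188, plus strand): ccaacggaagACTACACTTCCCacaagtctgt
Zfp454 (chr11:50887656-50887687, plus strand): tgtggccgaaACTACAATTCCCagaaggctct
Those 39 genes held 40 such matches, of which 23 read ACTACATTTCCC and 7 read ACTACAATTCCC. The 2 bases AG followed directly in 24 of the 40. All 40 stretches lay inside the deposited peak, and 34 ended within 100 bases of the TSS (median 34 bases before it). The motif was unevenly spread over the genome: 16 of 23 Zfp windows on chromosome 13, 15 of 54 on chromosome 7, 5 of 11 on chromosome 11 and 0 of 25 on chromosome 17 held it. Members with the motif had a median of 27.6 CPM per kb and a median log2 fold change, aged over young, of -0.03, and those without it 25.5 CPM per kb and 0.04.

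The rule took 248 of the 397 protein-coding Zfp symbols in the RefSeq table (62.5%), and a promoter peak by the same rule was found for 46.9% of the other protein-coding symbols. Of the 149 symbols not taken, 123 had a RefSeq promoter window, and 86 of these windows overlapped a consensus peak. The deposited annotation gave that peak another symbol (52), the same symbol over 1 kb from its TSS (33) or the same symbol as a pseudogene (1, Zfp939). Symbols were matched by name only, so another symbol can be an older name of the same gene, as Zfp607 may be for Zfp607a. Where such a peak is a protein-coding promoter within 1 kb, it counts among the other promoters. The 86 included Zfp148, Zfp445, which holds imprints, and Zfp830. The windows of the other 37 overlapped no peak, and 17 of them were on chromosomes 2 and 4. They included Zfp42 (Rex1, a marker of pluripotent cells), Zfp423, which commits cells to the fat lineage, and Zfp536 and Zfp804a, which are studied mainly in the nervous system. They also included Zfp600 and Zfp982 on chromosome 4 and Zfp965 to Zfp968 on chromosome 2. Over 50% of the 30-base words of the window were shared with another Zfp promoter in 10 of the 37, 8 of them on chromosomes 2 and 4, and in 5 of the 191 members with a window (Zfp937, Zfp943, Zfp944, Zfp951 and Zfp959). Reads of such copies can be ambiguous, so a missing peak there need not be closed chromatin, and values of those 5 members are uncertain. At the limit of the rule, Zfp362 lay just inside (981 bp from its TSS) with 8.71 ± 0.484 CPM in aged and 8.67 ± 0.642 CPM in young libraries (SD, n = 3 each). Zfp114 lay just outside (1004 bp) with 2.35 ± 0.331 CPM in aged and 2.74 ± 0.322 CPM in young libraries.

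Total counts in peaks were 21687816 to 26093521 in aged and 7278161 to 25901670 in young libraries, young replicate 1 being the shallowest. Members received 133477 to 156583 counts in aged and 43924 to 158942 counts in young libraries. Promoter peaks were found for 8 of 9 epithelial (all but Vil1) and 4 of 4 stem cell marker genes, against 2 of 4 stromal and 0 of 2 endothelial ones. The summed levels overlapped between the ages, at 328 to 344 CPM in aged and 302 to 347 CPM in young libraries for the epithelial and 9.07 to 9.9 CPM in aged and 8.85 to 10.3 CPM in young libraries for the immune cell gene Cd68. For the stem list they were 117 to 130 and 117 to 131 CPM, and for the stromal list 21.4 to 25.7 and 18.8 to 23.4 CPM. Ptprc and Cd3e of immune cells and Pecam1 and Cdh5 of endothelium had no promoter peak.

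Most Zfp promoters were moderately open. Their mean over the 6 libraries had a median of 20.2 CPM (quartiles 10.4 and 33.8), against 17.9 CPM (4.36 and 34.7) for the other protein-coding promoters, so fewer were nearly closed. Per kb of peak the medians were 23.9 and 21.0 CPM. The 5 highest means belonged to Zfp446 (109 CPM), Zfp36l2 (102 CPM), Zfp574 (98.0 CPM), Zfp143 (96.0 CPM) and Zfp219 (84.6 CPM). Zfp36l2 encodes an RNA-binding protein that promotes the decay of messenger RNA. Its promoter had 102, 101 and 111 CPM in aged and 106, 90.5 and 99.2 CPM in young replicates 1 to 3, and the ages overlapped. Zfp143 had 98.4, 89.8 and 96.2 CPM in aged and 103, 89.9 and 98.7 CPM in young replicates 1 to 3, overlapping as well. Per kb of peak the order changed: Zfp446 led with 160 CPM per kb, followed by Zfp956 with 159 and Zfp574 with 148, while Zfp143 stood at 75.9 and Zfp36l2 at 76.5. At the other end, Zfp532, Zfp14, Zfp316, Zfp345 and Zfp648 had means of 0.232 to 0.355 CPM, that is 0 to 20 counts per library. They did not pass the filter on low counts, which left 244 members tested. The only 0 among members was that of Zfp316 in young replicate 1, where a count of 0 allows up to 3 counts, or 0.418 CPM.

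Libraries ranked the Zfp promoters alike. Across the 244 tested members, which are not independent replicates and share library depth, log2 CPM correlated at 0.994 between aged libraries, 0.985 to 0.987 between young libraries and 0.980 to 0.987 between the ages. The share of all counts that fell in the 249 promoters was 0.608% ± 0.0077 in aged and 0.602% ± 0.013 in young libraries (SD, n = 3 each). Single aged libraries had 0.609, 0.615 and 0.600% and single young ones 0.604, 0.614 and 0.588% (replicates 1 to 3), so the ages overlapped. As a share of the counts in protein-coding promoters, Zfp promoters took 2.31% ± 0.023 in aged and 2.34% ± 0.0084 in young libraries (SD, n = 3 each). Aged libraries lay at 2.33, 2.32 and 2.29% and young ones at 2.34, 2.34 and 2.35%, without overlap. That difference was not tested.

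Few Zfp promoters differed with age. Of 244 tested, edgeR's quasi-likelihood test called 3 at an adjusted p under 0.05, all lower in aged organoids: Zfp334, Zfp37 and Zfp105. That is 1.23% of members, beside 1.13% of all 132055 tested peaks and 1.31% of 10425 other protein-coding promoters, so the share is near the background. By direction, 0 members were higher (beside 0.619% of all tested peaks and 0.365% of the other promoters) and 3 lower (beside 0.51% of all tested peaks and 0.95% of the other promoters). DESeq2 also called 0 higher, and 7 members were higher at an unadjusted edgeR p under 0.05. With the replicate number as a block, which joins same-numbered aged and young libraries, edgeR called 7 members, 3 higher and 4 lower. These were 2.87% of members, beside 2.67% of all tested peaks and 3.41% of the other promoters. The higher ones made up 1.23% of members, beside 1.46% of all tested peaks and 1.82% of the other promoters, and the lower ones 1.64%, beside 1.21% of all tested peaks and 1.59% of the other promoters. In bulk chromatin, fewer cells with an open promoter and less opening per cell cannot be told apart.

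The median log2 fold change, aged over young, was 0.03 over the tested members, 0.03 over the other protein-coding promoters and -0.01 over all tested peaks. It was positive for 143 of 244 members (58.6%), beside 60.1% of the other promoters and 48.0% of all tested peaks. In the same-numbered pairs the median log2 ratio of members was 0.02 at passage 4, 0.02 at passage 3 and 0.01 at passage 2. Aged and young values did not overlap at 40 members, or 16.4%, beside 14.8% of all tested peaks and 16.5% of the other promoters. Aged lay above at 21 (8.61%, beside 7.67% of all tested peaks and 11.3% of the other promoters) and below at 19 (7.79%, beside 7.08% of all tested peaks and 5.17% of the other promoters). Of the 244, 17 had an unadjusted p under 0.05 in edgeR (6.97%, beside 9.71% of all tested peaks and 10.3% of the other promoters). The 95% interval of the log2 fold change, unadjusted for the number of tests, lay wholly between -0.5 and 0.5 for 213 members, among them all 22 with a mean over 50 CPM and 103 of 104 between 20 and 50 CPM. Below 5 CPM it did so for 5 of 24, since the median standard error was 0.22 there and 0.08 above 50 CPM. Those 24 weakly open members held 2 of the 3 called promoters and had a median log2 fold change of -0.11, beside -0.06 for 2439 other promoters below 5 CPM, of which 3.81% were called.

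**Figure D2:**
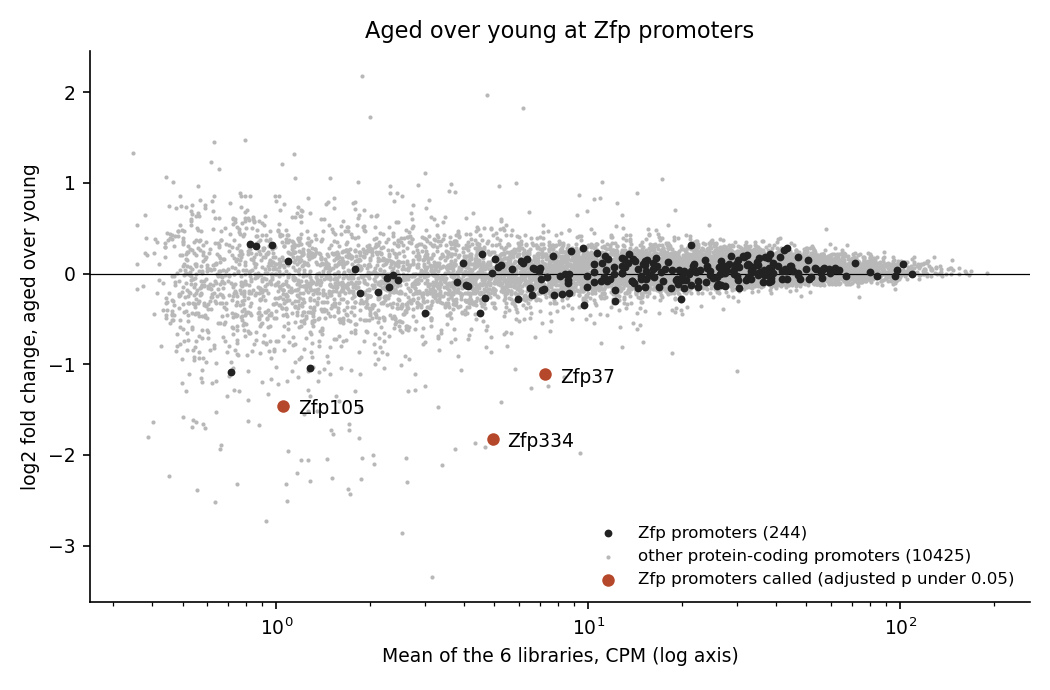
Log2 fold change, aged over young, against the mean CPM of the 6 libraries (log axis) for 244 Zfp promoters (black; called ones larger, in red) and 10425 other protein-coding promoters (grey). The called promoters of Zfp334, Zfp37 and Zfp105 lie at -1.82, -1.11 and -1.46, while the promoters above 20 CPM lie close to 0.

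Zfp334 showed the largest change of any tested member. Its promoter (chr2:165388011-165388434, 37 bp from the TSS) had 2.39, 2.25 and 2.00 CPM in aged and 6.69, 8.70 and 7.54 CPM in young replicates 1 to 3. Every aged library lay below every young one. It averaged 2.21 ± 0.197 CPM in aged and 7.64 ± 1.01 CPM in young organoids (SD, n = 3 each; log2 fold change -1.82, SE 0.18; edgeR adjusted p = 2.65e-08). Its call held with any 1 library left out. The 6 other tested peaks within 50 kb all had negative log2 fold changes, of -0.95 to -0.07, and edgeR called 0 of them (3 at an unadjusted p under 0.05, 0 by DESeq2). Over all tested peaks, 48.0% had a positive log2 fold change, 9.71% had an unadjusted p under 0.05 and 1.13% were called.

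Zfp37 encodes a zinc finger protein known in mouse from testis and neurons. Its promoter (chr4:62208197-62209018, 405 bp from the TSS) had 5.10, 4.13 and 4.81 CPM in aged and 8.09, 10.9 and 10.6 CPM in young replicates 1 to 3, again without overlap. The means were 4.68 ± 0.5 CPM in aged and 9.86 ± 1.54 CPM in young organoids (SD, n = 3 each; log2 fold change -1.11, SE 0.15; edgeR adjusted p = 2.16e-05), and this call too held with any 1 library left out. A more open peak in intron 3 of Zfp37, 7.81 kb from the TSS, had 16.5 ± 2.29 CPM in aged and 19.2 ± 1.46 CPM in young organoids (log2 fold change -0.23; edgeR adjusted p = 0.513). Of the 6 other tested peaks within 50 kb of the promoter peak, 5 had negative log2 fold changes (range -0.69 to 0.05). Among them edgeR called 0 (3 at an unadjusted p under 0.05, 0 by DESeq2).

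Zfp105, known in mouse mainly from the testis, had a weakly open promoter (chr9:122922933-122923352, 43 bp from the TSS). It received 11, 13 and 16 counts in aged and 10, 48 and 27 counts in young replicates 1 to 3, the young replicate 1 being a library of low depth. In CPM these were 0.497, 0.596 and 0.616 in aged and 1.39, 1.80 and 1.41 in young libraries, so the ages did not overlap. The log2 fold change was -1.46 (SE 0.31; edgeR adjusted p = 0.00702). Without young replicate 2 the call was lost (log2 fold change -1.29; edgeR adjusted p = 0.0821), as it was in DESeq2 (adjusted p = 0.0709), and adjusted p ranged from 0.0021 to 0.0821 over the alternatives. When all libraries were thinned to the depth of young replicate 1, the peak did not pass the filter. Of the 6 other tested peaks within 50 kb, 4 had negative log2 fold changes (range -0.50 to 0.06), and edgeR called 0 (0 at an unadjusted p under 0.05).

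**Figure D3:**
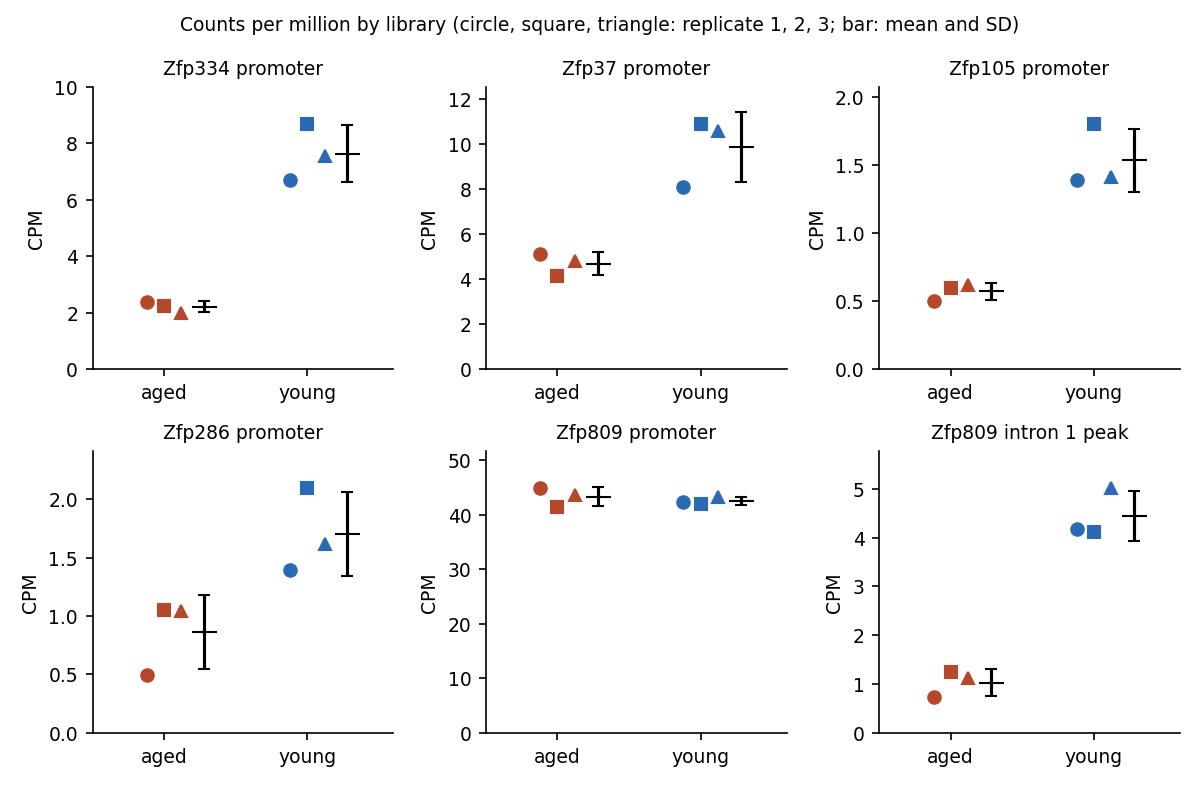
CPM in each library (circle, square and triangle for replicates 1, 2 and 3; bar for mean and SD, n = 3) at 5 Zfp promoters and at a peak in intron 1 of Zfp809, with aged left of young and every axis starting at 0. Aged lies below young without overlap in each panel except that of the Zfp809 promoter.

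Among members with a mean of at least 1 CPM and the same sign in all 3 pairs, Zfp286 had the next lowest log2 fold change. It had 0.497, 1.05 and 1.04 CPM in aged and 1.39, 2.10 and 1.62 CPM in young replicates 1 to 3, without overlap (log2 fold change -1.04, SE 0.29; edgeR adjusted p = 0.0843). With the replicate block it was called (log2 fold change -0.94, edgeR adjusted p = 0.0442). The log2 fold changes of the other lower members taken by the rule on size were -0.44 for Zfp804b, -0.43 for Zfp454, -0.35 for Zfp605, -0.30 for Zfp503, -0.28 for Zfp57 and -0.28 for Zfp867, and edgeR called none of these 6 with or without the block. The SE of these was 0.10 to 0.21.

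On the higher side, among members with a mean of at least 1 CPM and the same sign in all 3 pairs, the largest log2 fold changes were small. Zfp820 had 23.6 ± 1.19 CPM in aged and 19.3 ± 2.25 CPM in young organoids (SD, n = 3 each; log2 fold change 0.31, SE 0.10; edgeR adjusted p = 0.205). Zfp292, whose human counterpart is linked to intellectual disability, had 46.9, 49.2 and 46.5 CPM in aged and 40.9, 43.0 and 33.4 CPM in young replicates 1 to 3 (log2 fold change 0.28, SE 0.09; edgeR adjusted p = 0.159). Zfp746, which encodes the parkin substrate PARIS, had 44.6, 50.7 and 43.9 CPM in aged and 40.2, 41.5 and 34.5 CPM in young replicates 1 to 3 (log2 fold change 0.26, SE 0.09; edgeR adjusted p = 0.218). At each of these 3 promoters every aged library lay above every young one. With the replicate block edgeR called all 3 higher, with adjusted p of 0.0428 for Zfp820, 0.0139 for Zfp292 and 0.0291 for Zfp746. Without young replicate 2 it called Zfp292 (log2 fold change 0.38, edgeR adjusted p = 0.0147), Zfp746 (0.33, 0.0467) and Zfp553 (0.33, 0.0414) as higher. The other members taken by the rule on size were Zfp229 at a log2 fold change of 0.28, Zfp553 and Zfp821 at 0.22, Zfp326 and Zfp771 at 0.19 and Zfp398 and Zfp64 at 0.18, and edgeR called none of these 7 with all libraries, with or without the block.

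Members were also grouped by role, in lists written from general knowledge. The count of calls in each list stands beside 1.13% of all tested peaks and 1.31% of the other promoters. An unadjusted p under 0.05 was found in 9.71% of all tested peaks and 10.3% of the other promoters. Of 15 genes for RNA-binding and translation factors, 11 had a member promoter, and 0 were called higher and 0 lower by edgeR (0 at an unadjusted p under 0.05, 0 by DESeq2). Their log2 fold changes ran from -0.11 for Zfp638 to 0.19 for Zfp326, with a median of 0.02. Zfp36, which encodes tristetraprolin and directs the decay of inflammatory messenger RNAs, had 54.5 ± 5.17 CPM in aged and 53.2 ± 4.21 CPM in young organoids (SD, n = 3 each; log2 fold change 0.05, SE 0.09; edgeR adjusted p = 0.919). Its relative Zfp36l1 had 15.8 ± 1.83 CPM in aged and 15.6 ± 3.77 CPM in young organoids. Zfp598, a ubiquitin ligase that senses collided ribosomes, had 35.8 ± 3.09 CPM in aged and 34.0 ± 4.94 CPM in young organoids. Zfp622, which acts in maturation of the large ribosomal subunit, had 59.6 ± 3.73 and 59.1 ± 1.72 CPM. Group means of these 4 genes differed by less than the larger SD.

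Of 24 genes listed as KRAB repressors of retroelements and imprints, without a check of role or KRAB domain, 11 had a member promoter. Among these edgeR called 0 (0 at an unadjusted p under 0.05, 0 by DESeq2). The median log2 fold change was 0.00. Zfp57, which maintains methylation of imprinted regions, had 4.38, 5.69 and 5.97 CPM in aged and 6.97, 6.15 and 6.60 CPM in young replicates 1 to 3. Aged lay below young without overlap, but the difference did not pass the test (log2 fold change -0.28, SE 0.16; edgeR adjusted p = 0.626). Zfp708, which represses a class of long terminal repeats in mouse, had 39.2 ± 1.66 CPM in aged and 34.9 ± 2.40 CPM in young organoids (log2 fold change 0.18, edgeR adjusted p = 0.53). Zfp819, a repressor of transposable elements in mouse stem cells, had 7.21 ± 0.635 and 8.37 ± 1.46 CPM (log2 fold change -0.24, edgeR adjusted p = 0.659). Zfp729a and Zfp729b, neighbouring members on chromosome 13, had log2 fold changes of 0.00 and 0.01. Zfp729b had no matched RefSeq window, so sequence shared between them was not measured, and their reads may be ambiguous.

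Among 14 broadly expressed factors listed as lacking KRAB, 12 had a member promoter and edgeR called 0 (1 at an unadjusted p under 0.05, Zfp292, and 0 by DESeq2), with a median log2 fold change of 0.06. With the replicate block, and without young replicate 2, edgeR called Zfp292 as higher (adjusted p = 0.0139 and 0.0147). These included promoters as open as those of Zfp143 and Zfp574, whose log2 fold changes were -0.03 and 0.04 (SE 0.07 and 0.08). Zfp410, an activator of the gene of the chromatin remodeller Chd4, was at 0.06 and Zfp281 at -0.14. Zfp131 and Zfp787 were at 0.15 each.

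Of 21 developmental factors, 10 had a member promoter. Zfp804b and Zfp503, both lower in aged, had an unadjusted edgeR p under 0.05 (2 of 10, beside 9.71% of all tested peaks). EdgeR called 0 of the 10 (0 by DESeq2), and their median log2 fold change was -0.01. They were weakly open, with a median of 4.97 CPM, apart from Zfp703, a corepressor gene known from breast epithelium, at 50.7 ± 0.827 CPM in aged and 49.1 ± 0.776 CPM in young organoids (SD, n = 3 each). Zfp503, which acts in forebrain and eye development, had 8.53, 11.4 and 12.3 CPM in aged and 16.0, 11.9 and 12.9 CPM in young replicates 1 to 3, so the ages overlapped (log2 fold change -0.30; edgeR adjusted p = 0.481).

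Partners of KRAB zinc finger proteins were looked at beside them. Of 25 listed symbols of the TRIM28 silencing machinery, 11 had a promoter peak by the same rule. Symbols were matched by name, and Tasor, listed as well as Fam208a, is another name of that gene. Among the 11, edgeR called 1, Atf7ip, as lower (9.09%, beside 1.13% of all tested peaks and 1.31% of the other promoters). Of the other promoters below 5 CPM, a level that includes that of Atf7ip, 3.81% were called. ATF7IP binds and stabilises SETDB1. The called Atf7ip peak (chr6:136553859-136554088) was weak, with 0.812, 0.780 and 0.924 CPM in aged and 2.65, 1.80 and 2.57 CPM in young replicates 1 to 3 (log2 fold change -1.41, SE 0.27; edgeR adjusted p = 0.00228). This peak gave no result when all libraries were thinned to the depth of young replicate 1. Setdb1 itself had 8.76 ± 1.14 CPM in aged and 10.1 ± 0.567 CPM in young organoids (SD, n = 3 each; log2 fold change -0.19, edgeR adjusted p = 0.723). The other 9 of the 11, among them Dnmt1, Uhrf1, Chaf1a and Cbx1, had log2 fold changes of -0.08 to 0.08. Resf1 had no peak under that symbol, but the promoter under its older symbol 2810474O19Rik had a log2 fold change of 0.24 (edgeR adjusted p = 0.362). Trim28, Atrx, Daxx and Cbx5 had no promoter peak named for them in the deposited annotation.

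Beyond the chosen promoter peaks, the sharpest change at a member gene lay inside Zfp809, which encodes the protein that recognises the primer binding site of murine leukaemia viruses and silences them in mouse stem cells. A peak in its intron 1 (chr9:22226926-22227144, 1.32 kb from the TSS) had 0.722, 1.24 and 1.12 CPM in aged and 4.18, 4.12 and 5.03 CPM in young replicates 1 to 3. Aged lay far below young in every pair. The means were 1.03 ± 0.270 CPM in aged and 4.45 ± 0.506 CPM in young organoids (SD, n = 3 each; log2 fold change -2.11, SE 0.23; edgeR adjusted p = 2.57e-07), and the call held with any 1 library left out, in thinned libraries (edgeR adjusted p = 5.42e-05) and in DESeq2 (adjusted p = 6.07e-10). The promoter peak of Zfp809, whose nearer edge lies 785 bp away, had 45.0, 41.4 and 43.6 CPM in aged and 42.4, 41.9 and 43.3 CPM in young replicates 1 to 3 and overlapped between the ages (log2 fold change 0.03, 95% interval -0.14 to 0.20). Of the 7 other tested peaks within 50 kb, edgeR called 0 (2 at an unadjusted p under 0.05, 0 by DESeq2). One of them was the weak Zfp872 promoter, with 0.451, 0.367 and 0.578 CPM in aged and 0.837, 1.12 and 0.943 CPM in young replicates 1 to 3 (log2 fold change -1.09, SE 0.37; edgeR adjusted p = 0.206).

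Of 548 other tested peaks of member genes, edgeR called 4 (0.73%, beside 1.13% of all tested peaks), 3 higher and the Zfp809 peak lower. The higher ones lay far from their TSS. The Zfp664 peak, 32.9 kb away, had 3.52 ± 0.490 CPM in aged and 1.96 ± 0.243 CPM in young organoids (SD, n = 3 each; log2 fold change 0.90, edgeR adjusted p = 0.0219). The Zfp747 peak, 11.7 kb away, had 2.76 ± 0.434 and 1.33 ± 0.527 CPM (0.95, edgeR adjusted p = 0.0467), and the Zfp365 peak, 127 kb away, 16.1 ± 0.480 and 11.5 ± 1.48 CPM (0.47, edgeR adjusted p = 0.0466). Each of these 3 calls was lost in at least 4 of the 6 fits that leave out a library, with adjusted p up to 0.181 for Zfp664 and 0.235 for Zfp365 (both without aged replicate 3) and 0.222 for Zfp747 (without aged replicate 1). The second promoter peaks of members, 14 of which were tested, held 0 calls in edgeR (1 at an unadjusted p under 0.05).

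Members within 200 kb of each other formed 13 clusters of 4 or more, with 98 members in all. The 97 tested ones had a median log2 fold change of 0.03, as did the 147 tested outside, and edgeR called 0 in clusters (7 at an unadjusted p under 0.05, 0 by DESeq2) and 3 outside (2.04%), beside 1.13% of all tested peaks, so the counts do not set the clusters apart. With the replicate block it called 2 in clusters (2.06%), Zfp820 and Zfp746, and 5 outside (3.4%), beside 2.67% of all tested peaks. Without young replicate 2 it called Zfp746 and Zfp553 in clusters. The longest array, on chromosome 13 (chr13:67060216-67814546), ran over 21 members from Zfp712 to Zfp273. Its log2 fold changes lay between -0.16 and 0.18, with a median of 0.01 and 13 of 21 positive. Levels within it differed widely, from 1.78 CPM at Zfp456 to 38.5 CPM at Zfp748, or 14.3 and 59.3 CPM per kb of peak. Of the 17 of these members with a RefSeq window, 16 held the ZNF143 motif shown above, Zfp459 being the exception.

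**Figure D4:**
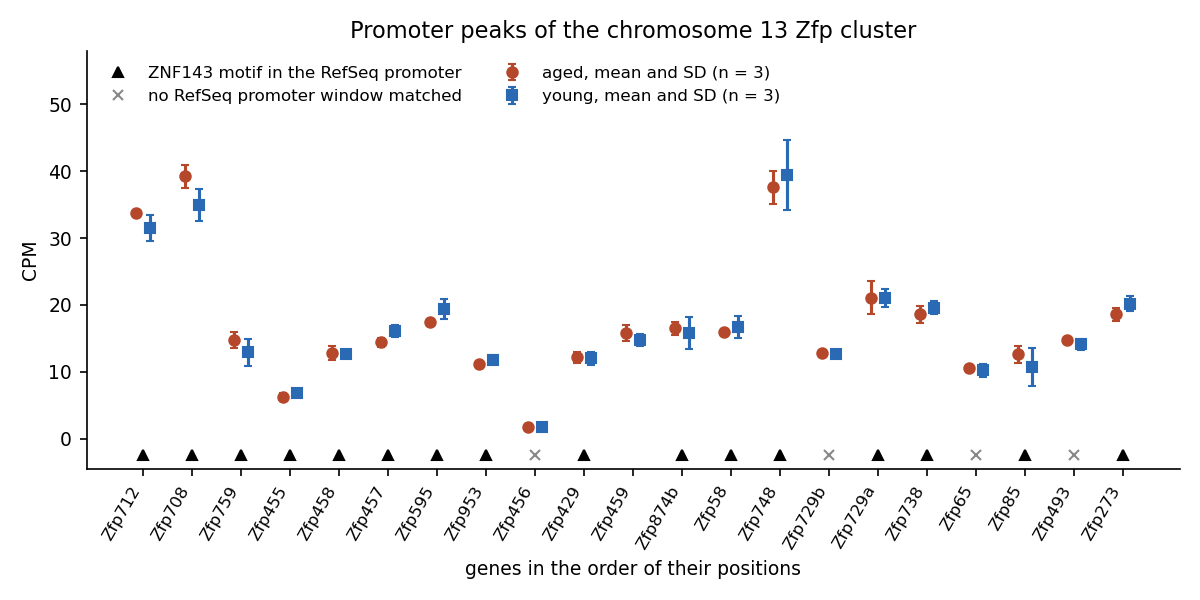
CPM (mean and SD, n = 3) in aged (red circles, left) and young (blue squares, right) organoids at the 21 promoters of the chromosome 13 array, in the order of their positions. Triangles mark a ZNF143 motif in the RefSeq promoter window and crosses members without a matched window, and levels range from 1.78 CPM at Zfp456 to 38.5 CPM at Zfp748.

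Arrays differed in motif content. Besides the chromosome 13 array, 3 had the ZNF143 motif in most of their windows. It was in 7 of 9 windows from Zfp84 to Zfp566 and in 5 of 7 from Zfp180 to Zfp575, both on chromosome 7, where the median log2 fold change was -0.06 in each. It was in 4 of 4 from Zfp354c to Zfp354a on chromosome 11, where the median was 0.08. The array from Zfp110 to Zfp446 held it in 1 of 3 windows, with a median of -0.01. The 8 arrays without the motif in any window had medians of -0.03 (Zfp871 to Zfp563) to 0.18 (Zfp786 to Zfp746). The highest cluster median, 0.18, was that of 5 members on chromosome 6, Zfp786, Zfp398, Zfp282, Zfp956 and Zfp746. With all libraries and no block edgeR called 0 of them (0 by DESeq2), beside 1.13% of all tested peaks. Zfp398, Zfp282 and Zfp746 had an unadjusted edgeR p under 0.05 (3 of 5), beside 9.71% of all tested peaks and 10.3% of the other promoters. The cluster was picked by its median log2 fold change, so this count is not separate evidence.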

How the data were processed

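The data were 6 ATAC-seq libraries. The deposited table of counts per consensus peak came from featureCounts, per the file headers, and was not normalised, and each library has its own column. The other deposited table gives the annotation of each peak, on GRCm38. The authors trimmed, aligned and called peaks with tools that include MACS2 2.2.7.1, BWA 0.7.17-r1188 and Trim Galore 0.6.4, and counted with featureCounts 2.0.1, per the submitters' processing notes. No source used here states how duplicates, reads with several map positions or the Tn5 offset were handled, and without molecular identifiers intervals cover counting error and the spread between libraries only. Start positions are the 1-based ones of the annotation.

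Aged was compared with young over all 132055 peaks that passed filterByExpr (minimum count 10) with edgeR 4.0.16 in R 4.3.3, by the robust quasi-likelihood F test with TMM factors, and Benjamini-Hochberg adjusted p over all of them, with a threshold of 0.05. CPM used TMM-scaled library sizes. On simulated counts over 132055 peaks the fit recovered 54% of 100 changes of 1 and 92% of 100 changes of 2 on the log2 scale. It made 7 false calls. The changed peaks were drawn from all tested peaks, so these shares do not describe Zfp promoters alone. Named members were those called, the 10 highest and 10 lowest log2 fold changes with a mean of at least 1 CPM and 1 sign in all 3 pairs, the 5 highest and 5 lowest means, and the 3 smallest p in each of 4 role lists. Others, such as Zfp809, Zfp872 and Zfp956, were named after their values were seen. The members and lists were chosen with earlier results of these data known, and the motifs, k-mers and RefSeq windows were added afterwards. RefSeq promoter windows on GRCm38.p6 were matched by symbol.

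Same-numbered libraries share a culture code and passage in the titles and were taken as pairs on that ground. Their deviations from the group means correlated at 0.0738, 0.126 and 0.144 (replicates 1 to 3). For aged and young libraries of different numbers the values were -0.125 to 0.00328. Deviations within a group cancel out, so these values are not independent of each other. Alternatives were RLE factors (DESeq2's size factors), library totals, no filter, a minimum count of 30, the replicate block, each library left out, thinning, DESeq2 1.42.0, a distance up to 500 bp, the peak nearest to the TSS and all peaks within 1000 bp.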

Additional observations from a re-analysis of the deposited data

How the results depend on the processing

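With any 1 library left out, 3 to 5 Zfp promoters were called, 0 to 3 higher and 2 to 3 lower. The 5 calls, 3 of them higher, came without young replicate 2. With the replicate block 7 were called, 3 higher and 4 lower. The other settings gave 2 or 3 calls, all lower, and 3 when peaks over the RefSeq windows of other Zfp genes were added, an alternative chosen after seeing the data. Zfp334 and Zfp37 were called under every setting tried. Zfp105 was lost in DESeq2 and without young replicate 2, and it did not pass the filter in thinned libraries. The median log2 fold change of 0.026 stayed positive, at 0.014 with library totals, 0.013 in thinned libraries and 0.002 to 0.035 with 1 library left out. Over the refits of the 31 tested named members, 393 values kept the side of the threshold, 7 gained a call and 2 lost it. Zfp105 in thinned libraries had no value and is not counted there. Over all tested peaks edgeR called 1491, against 3523 with the replicate block, 696 in thinned libraries, 883 in DESeq2 and 830 to 1902 with 1 library left out. The cause of these shifts was not tested. Among tested members the median standard error of the log2 fold change was 0.22 below 5 CPM and 0.08 above 50 CPM.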

Other observations

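Zfp-named genes that are not annotated as protein-coding were outside the comparison. They had 8 promoter peaks at 7 genes, of which 7 were tested and edgeR called 0 (1 at an unadjusted p under 0.05, 0 by DESeq2). That 1 was a peak of the processed pseudogene Zfp36l1-ps, with 1.33 ± 0.0532 CPM in aged and 1.9 ± 0.305 CPM in young organoids (SD, n = 3 each; log2 fold change -0.52, SE 0.25; edgeR adjusted p = 0.494). A peak of Zfp652os, an antisense transcript, had 33.4 ± 2.38 CPM in aged and 29.0 ± 5.2 CPM in young organoids (SD, n = 3 each; log2 fold change 0.18, SE 0.10; edgeR adjusted p = 0.625). Zfp286os, antisense to the weakly open Zfp286, had 17.7 ± 2.2 CPM in aged and 19.6 ± 5.01 CPM in young organoids (log2 fold change -0.15). The pseudogenes Zfp939 and Zfp783 had 41.1 ± 0.335 and 9.03 ± 1.86 CPM in aged and 39.0 ± 5.69 and 9.50 ± 1.23 CPM in young organoids.

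The peaks over RefSeq promoter windows of Zfp genes that are not members, Zfp939 included, had a median of 25.9 CPM. Of 85 tested, edgeR called 0 (3 at an unadjusted p under 0.05, 0 by DESeq2), and their log2 fold changes ran from -0.50 to 0.28 with a median of 0.01. Many of these peaks carry another symbol, that of a neighbouring gene or an older name of the same gene.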
